A study of Homo sapiens with 4 samples.

Results

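The 16p13 end of human chromosome 16, which carries the alpha-globin genes, was described here through the RNAs that touched its regulatory elements. Its members were all listed enhancers and promoters on chromosome 16 that start below 5000000 (hg38), 192 of the 33948 elements in the table. The first 300 kb, called the window below, held the alpha-globin locus and 17 of these elements, and the rest of the segment held 175. Among listed elements, position alone decided membership. An element is listed only where it has a contact in either genotype, and the segment was chosen with earlier results of these data known. Contacts came from GRID-seq, an assay that joins an RNA through a linker to the DNA beside it in fixed nuclei. The cells were K562, a human leukaemia line with erythroid features, carrying RUNX1 R320*, a premature stop in a transcription factor of blood development, or wild-type RUNX1 (WT), in 2 libraries each. Both genotypes were fixed in the same way, with 2 mM DSG for 45 minutes and then 3% formaldehyde for 10 minutes. The labels do not say whether the R320* cells were 1 clone or several, or whether libraries came from separate cultures.

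The authors deposited 1 pooled score per genotype for each connection, a pair of an RNA and an element. A score was either 0 or above 1.2, so a 0 was read as not listed and never as a measured zero. With 1 pooled value per genotype there is no replicate check, and no difference below has a test or a p-value. SDs are over connections, and depth is unknown. Connections are local (at the RNA's own gene), cis (elsewhere on its chromosome) or trans (another chromosome). Listed as RNAs were 3 of 11 erythroid markers (HBG2, HBE1 and TFRC), 1 of 5 megakaryocytic (ITGA2B) and 0 of 5 myeloid markers. In the genome, 11.6% of 19974 protein-coding genes were listed. HBG2 and HBE1 belong to 1 gene cluster, and counts this small do not check the cell type. The table holds contacts and no RNA levels, so an unlisted marker is not shown to be unexpressed.

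The alpha-globin cluster makes the alpha-like chains of haemoglobin: HBZ encodes the embryonic chain, HBA2 and HBA1 the fetal and adult chains, and HBM and HBQ1 the mu and theta members. Its distal enhancers lie largely within introns of the neighbouring gene NPRL3, which is itself transcribed and encodes a subunit of GATOR1, an inhibitor of mTORC1 signalling. Beyond the cluster lies LUC7L, a homologue of a yeast U1 snRNP splicing factor.

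The promoters below belong to the genes whose RNAs or elements carried the window's contacts, and they are shown to give the sequence at those elements. Each is the 250 bases before an annotated start of the gene in RefSeq (GRCh38.p14), 5′ to 3′ on the gene's strand. For MPG this start is an internal one, so the stretch lies within the gene (77007 to 85846). Capitals mark matches, on either strand, to a GATA factor motif (the letters AGATAA, the letters AGATAG, the letters TGATAA or the letters TGATAG), a RUNX motif (the letters TGTGGT or the letters TGCGGT) or the CACCC box (the letters CCACCC). Of 35116 promoters in the reference table, 22.3% held a GATA match, 16.3% a RUNX match and 31.3% a CACCC match. NPRL3 (chr16:138674-138923, minus strand) gave the RNA found in R320* alone, and its promoter lay in no listed element.
NPRL3: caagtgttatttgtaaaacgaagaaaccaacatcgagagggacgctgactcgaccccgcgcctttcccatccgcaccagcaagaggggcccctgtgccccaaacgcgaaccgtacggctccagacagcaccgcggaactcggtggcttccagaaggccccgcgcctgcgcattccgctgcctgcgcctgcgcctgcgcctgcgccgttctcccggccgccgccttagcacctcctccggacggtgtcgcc
MPG (chr16:77975-78224, plus strand), a DNA glycosylase gene, lies inside the promoter element labelled RHBDF1, where NPRL3 RNA scored highest.
MPG: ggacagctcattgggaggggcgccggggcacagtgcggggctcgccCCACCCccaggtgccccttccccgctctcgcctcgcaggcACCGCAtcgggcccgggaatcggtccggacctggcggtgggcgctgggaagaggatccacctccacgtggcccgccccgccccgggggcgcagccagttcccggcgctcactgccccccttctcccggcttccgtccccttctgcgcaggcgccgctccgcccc
HBM (chr16:165728-165977, plus strand) lies inside the HBM enhancer element of the globin cluster.
HBM: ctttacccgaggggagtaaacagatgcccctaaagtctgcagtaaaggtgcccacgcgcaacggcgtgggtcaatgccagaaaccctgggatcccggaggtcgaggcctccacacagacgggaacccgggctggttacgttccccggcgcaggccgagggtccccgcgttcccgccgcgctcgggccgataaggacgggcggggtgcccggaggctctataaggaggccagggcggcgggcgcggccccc
LUC7L (chr16:229450-229699, minus strand) gave the RNA that both genotypes shared across the window.
LUC7L: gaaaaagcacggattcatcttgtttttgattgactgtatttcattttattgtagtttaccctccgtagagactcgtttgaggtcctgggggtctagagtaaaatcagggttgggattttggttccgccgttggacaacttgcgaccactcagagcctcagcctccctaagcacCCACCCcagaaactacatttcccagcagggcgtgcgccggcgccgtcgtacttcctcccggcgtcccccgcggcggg
FAM234A (chr16:234571-234820, plus strand) lies inside the promoter element where LUC7L RNA scored highest.
FAM234A: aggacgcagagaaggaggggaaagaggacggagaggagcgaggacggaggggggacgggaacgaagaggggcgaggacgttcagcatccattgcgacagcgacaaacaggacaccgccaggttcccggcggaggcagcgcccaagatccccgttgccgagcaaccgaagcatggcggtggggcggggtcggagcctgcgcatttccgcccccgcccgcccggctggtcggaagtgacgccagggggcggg
The MPG promoter held 1 RUNX match, on the other strand, and 1 CACCC match, and the LUC7L promoter held 1 CACCC match. No letters of these motifs were found in the NPRL3, HBM and FAM234A stretches. Of 9 genes looked up in the window, 7 matched. Of the matched promoters that are not printed, that of POLR3K held 1 CACCC match and lay in the POLR3K promoter element. The RHBDF1 stretch (72632 to 72881, minus strand) held 1 RUNX match and lay in no listed element. It precedes an internal start, since the gene spans 58059 to 76360. The outer end of RHBDF1 lies in the RHBDF1 promoter element (74859 to 79285).

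RNAs of 2 of the window's own genes, LUC7L and NPRL3, made 30 of its 35 connections. LUC7L RNA met 15 of the 17 elements, and all 15 contacts were listed in both genotypes. NPRL3 RNA met the same 15 elements in R320* and was not listed in WT, at the window or anywhere else in the table. No alpha-like globin gene (HBZ, HBM, HBA2, HBA1 or HBQ1) was listed as an RNA. Of 19 protein-coding RefSeq genes in the window, 2 were listed as RNAs (10.5%), against 3.37% of 178 in the rest of the segment and 11.6% of 19974 in the genome.

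The globin genes themselves lay in few elements. HBM overlapped the enhancer named for it (162384 to 167093). HBA2, HBA1 and HBQ1 all overlapped a single promoter element of 12231 bp named for HBQ1 (169910 to 182140), so a contact there cannot be given to 1 of these genes. HBZ overlapped 0 listed elements. At the HBM enhancer, LUC7L RNA scored 2.34 in R320* and 1.95 in WT, and NPRL3 RNA scored 2.39 in R320*. At the HBQ1 promoter, LUC7L RNA scored 2.85 in R320* and 2.80 in WT, and NPRL3 RNA scored 2.27 in R320*. LUC7L RNA was thus nearly level between genotypes over the alpha genes and higher in R320* over HBM.

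NPRL3, the gene that hosts the globin enhancers, carried 3 elements. Its long enhancer element (94743 to 121093, 26351 bp) covered most of the middle of the gene; which single enhancers it holds was not looked up here. There, NPRL3 RNA scored 2.46 in R320*, and LUC7L RNA scored 1.83 in R320* and 1.92 in WT. RNA of MATR3, a nuclear matrix and RNA-binding protein encoded on chromosome 5, scored 2.21 there in R320* and was not listed in WT. MATR3 RNA also met the NPRL3 promoter element at 123803 to 126504, scoring 2.51 in R320*. That promoter was the window's 1 element with no contact listed in WT. At the other NPRL3 promoter element (90646 to 92131), LUC7L RNA scored 2.02 in R320* and 1.80 in WT, and NPRL3 RNA scored 1.65 in R320*.

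On the telomeric side lie POLR3K, a subunit of RNA polymerase III, and RHBDF1, an inactive rhomboid protein. At the 3 POLR3K elements, LUC7L RNA scored 2.15, 2.28 and 2.35 in R320*, against 1.91, 1.97 and 2.02 in WT. NPRL3 RNA scored 1.69, 1.78 and 1.94 at these elements in R320*. Both RNAs thus scored higher toward RHBDF1, and LUC7L was higher in R320* at each. At the RHBDF1 enhancer (65780 to 66737), LUC7L RNA scored 2.51 in R320* and 2.19 in WT, while NPRL3 RNA scored 2.80 in R320*. The same enhancer met LMAN1 RNA, from a cargo receptor gene on chromosome 18, at 1.37 and the nuclear-speckle RNA MALAT1 at 1.27, both in R320* only and near the minimum of 1.2. At the RHBDF1 promoter (74859 to 79285), LUC7L RNA scored 2.60 in R320* and 2.29 in WT. NPRL3 RNA reached 3.24 there in R320*, its highest score. This element also covers part of MPG, whose far end (85846) overlaps the end of NPRL3 (85386), outside the element. The sources used here do not say whether reads were assigned by strand, so RNA reads from the overlap of the genes could belong to either.

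On the centromeric side LUC7L RNA scored highest, and there the genotypes were close. At the FAM234A promoter (232071 to 236077), it scored 3.51 in R320* and 3.57 in WT. At the Z69706.1 promoter (185371 to 187865), it scored 3.29 in R320* and 3.36 in WT. Its local contacts were 3.06 in R320* and 3.08 in WT at the enhancer near its end (190857 to 191136), and 2.57 in both genotypes at its own promoter (227300 to 231805). The score was thus higher just outside either end of LUC7L than at its promoter. At the FAM234A enhancer (239571 to 245896), LUC7L RNA scored 1.73 in R320* and 1.83 in WT. At the Z69667.1 promoter (277497 to 277864), it scored 2.25 in R320* and 1.67 in WT. This difference of 0.581 was the highest of the segment. NPRL3 RNA ranged from 1.61 to 2.08 over these elements in R320*. The enhancer inside LUC7L (219659 to 220003) met neither RNA, and its 1 visitor was RNA of SKI, a SMAD co-repressor encoded on chromosome 1, at 1.32 in R320* and 1.22 in WT.

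Within the window, LUC7L RNA differed more between genotypes on the telomeric side of the globin genes. Over the 8 elements before the HBQ1 promoter, LUC7L RNA had a median score of 2.31 in R320* and 1.96 in WT, and 7 were higher and 1 lower in R320*. The median difference was 0.307 (SD 0.149). Over the 7 elements from the HBQ1 promoter on, the medians were 2.85 in R320* and 2.80 in WT, with 2 higher and 5 lower in R320*. The median difference there was -0.0222 (SD 0.237). The split at HBQ1 was made after the values were seen. It does not extend past the window, since at the 7 elements from 0.3 to 0.4 Mb LUC7L RNA was higher in R320* at 5 and lower at 2, with a median difference of 0.188. In R320*, LUC7L RNA scored above NPRL3 RNA at 11 of their 15 shared elements, and NPRL3 RNA scored above LUC7L RNA at 4, the pair of RHBDF1 elements, the NPRL3 enhancer and the HBM enhancer.

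**Figure D1:**
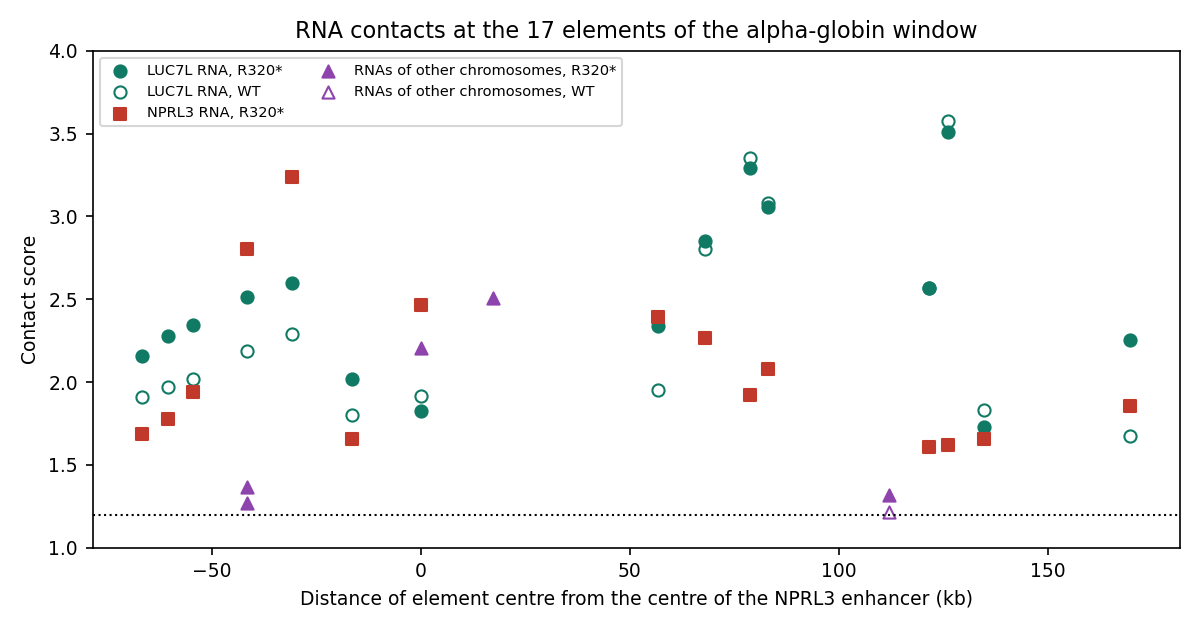
Contact scores at the 17 elements of the window, by distance of the element's centre from the centre of the NPRL3 enhancer element (kb); filled symbols are R320*, open symbols WT, and the dotted line is the minimum of 1.2. LUC7L circles sit above their WT circles on the left. On the right they are close, except at the HBM enhancer and the Z69667.1 promoter, where R320* is clearly higher. NPRL3 squares exist for R320* alone, highest at 3.24.

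Counted as connections, the window listed 35 in R320* and 16 in WT. Of its 35 connections, 19 were in R320* only, 16 in both genotypes and 0 in WT only (54.3%, 45.7% and 0%). Over the whole table these shares were 28.5% in R320* only, 45.2% in both and 26.3% in WT only. The rest of the segment listed 231 connections in R320* and 191 in WT, of which 123 were in R320* only, 108 in both and 83 in WT only (39.2%, 34.4% and 26.4%). On the rest of chromosome 16, 28.0% of 2651 connections were in R320* only, 47.7% in both and 24.3% in WT only. The segment as a whole thus had a smaller shared part, 35.5% of 349, than the table or its own chromosome.

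The window's excess in R320* rested on NPRL3 RNA. Without it, 4 of 20 window connections were in R320* only and 16 in both (20% and 80%). With all RNAs left out that the table lists in 1 genotype only, the window stood at 20% in R320* only and the rest of the segment at 31.4%, so the order of the zones turned. Such RNAs were 8.61% of the table's RNAs for R320* only and 10.4% for WT only. Of the 8 RNAs listed from genes of the segment, 3 were of this kind, NPRL3, HMOX2 and CAPN15, all in R320*. The sources used here do not say what made an RNA pass into the list, and RNA level is not in the table.

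**Figure D2:**
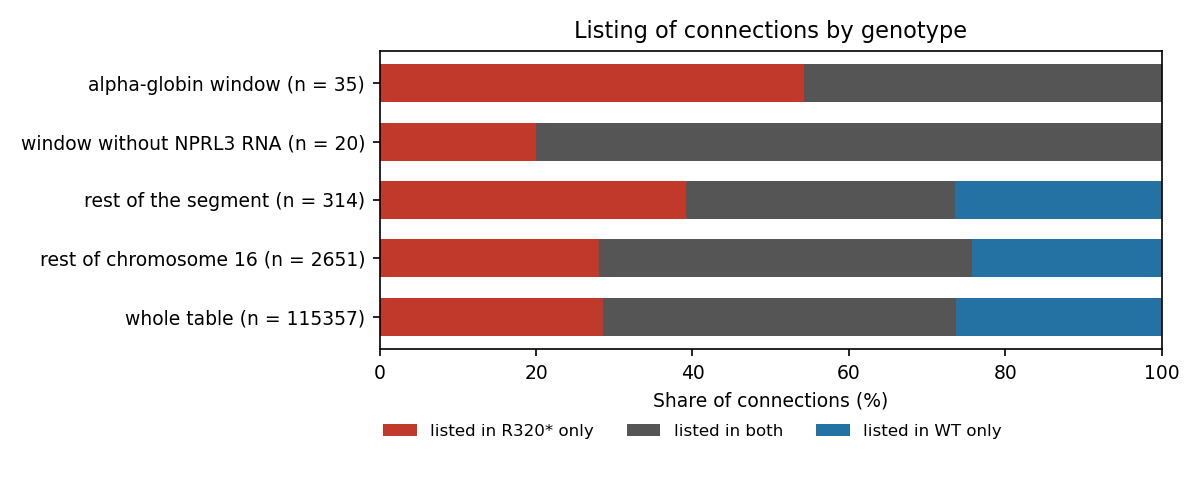
Share of connections (%) listed in R320* only, in both genotypes and in WT only, for the window with and without NPRL3 RNA, the rest of the segment, the rest of chromosome 16 and the whole table (n is the number of connections). The share in R320* only is 54.3% in the window and 20% there without NPRL3 RNA.

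The elements of the segment were more often promoters, and longer, than those of the table. Enhancers made up 93 of 192 (48.4%), against 65.6% on the rest of chromosome 16 and 70.3% in the table, and the window held 8 enhancers and 9 promoters. Median lengths were 4007 bp in the window, 2908 bp in the rest of the segment and 1868 bp in the table. All 17 window elements, and 161 of the segment's 192, came from block 1, which makes up 59.0% of the table's elements. Blocks were set by row order: block 1 is the first run of rows of each chromosome, and block 2 any later rows. In the segment the median length was 3417 bp in block 1 and 534 bp in block 2. Elements of the window met 2.06 connections each, against 1.79 in the rest, 2.62 on the rest of chromosome 16 and 3.40 over all elements. Per kb of element the window had 0.429 connections and the rest of the segment 0.469. The segment was thus visited less than the table per element, and the order of window and rest depended on how length was counted. Among elements of 1 to 10 kb the window had 0.469 connections per kb and the rest 0.464, and among block 1 elements 0.429 and 0.408.

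Enhancers and promoters had close genotype shares, and the shares differed more between local, cis and trans connections. In R320* only were 40.6% of 170 connections to enhancers and 40.8% of 179 to promoters, and 37.1% and 34.1% were in both. Local connections were shared in 10 of 16 cases (62.5%), cis in 105 of 236 (44.5%) and trans in 9 of 97 (9.28%). In the table these shares were 81.1%, 51.4% and 11.5%. The 6 local connections that were not shared all belonged to NPRL3, HMOX2 and CAPN15 and were in R320* only. Trans connections were 27.8% of the segment's, against 19.0% of the table's, and 45 were in R320* only and 43 in WT only.

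RNAs of 8 genes inside the segment gave 234 of its 349 connections (67.0%), and 97 came from 28 RNAs of other chromosomes. Of the other 18, from chromosome 16, 14 belonged to AC093515.1, which has no position in the RefSeq table, 2 to ABCC1, 1 to NFAT5 and 1 to ATF7IP2. Within the segment, most contacts of the 8 RNAs lay in a stretch around their gene. LUC7L RNA left the window on the centromeric side and met 20 more elements. Up to 0.4 Mb all 7 were shared, from 0.4 to 0.6 Mb 4 were in R320* only and 1 in both, and from 0.6 Mb on 3 were in both and 5 in WT only. Its farthest element lay 445 kb from the gene in R320* and 489 kb in WT. In WT alone it reached FBXL16, METRN, FAM173A and MCRIP2 elements, at 2.32 for the FBXL16 enhancer (695452 to 696202). At the promoter of STUB1, a ubiquitin ligase, LUC7L RNA scored 1.38 in R320* and 2.05 in WT. NPRL3 RNA met 13 elements of the rest in R320*, from 1.23 to 1.92 with a median of 1.48, and reached 536 kb.

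**Figure D3:**
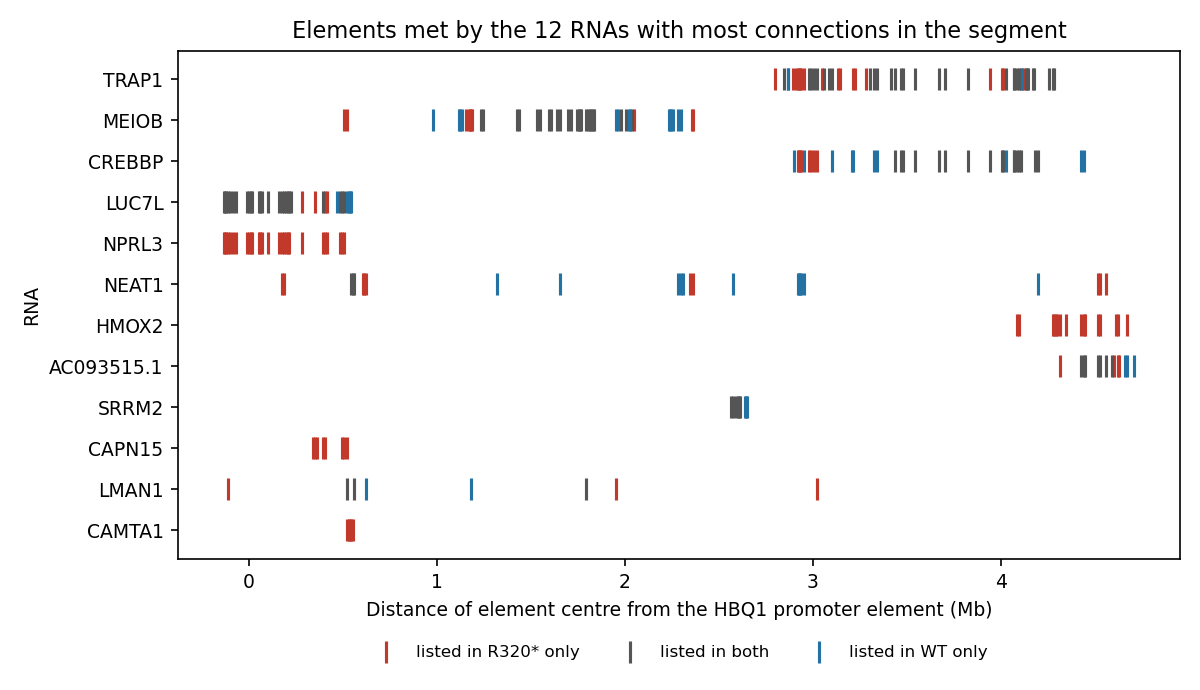
Elements met by the 12 RNAs with most connections in the segment, by distance of the element's centre from the HBQ1 promoter element (Mb); each tick is 1 element, in red for R320* only, grey for both and blue for WT only. RNAs of the segment's own genes fill separate stretches, with NPRL3, HMOX2 and CAPN15 wholly in red, and NEAT1 and LMAN1 are spread along the segment.

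RNA of TRAP1, a mitochondrial HSP90 chaperone whose gene overlaps DNASE1, met the most elements. These were 51 in R320* and 36 in WT, with 33 in both. Scores ran from 1.204 to 2.37 in R320* and from 1.26 to 2.39 in WT. Around its gene, from 3479311 to 4004791, all 11 contacts were shared and the median difference was 0.0218. On the telomeric side, 7 neighbouring contacts from 3069373 to 3136340, around the zinc-finger genes ZSCAN10, ZNF205 and ZNF213, and 5 from 3304324 to 3459835 were in R320* only. On the centromeric side, 3 contacts from 4116639 to 4189198 were in R320* only. From 4.2 Mb on, 13 were shared, of which 10 were lower and 3 higher in R320*, with a median difference of -0.204. At a GLIS2 enhancer (4319673 to 4319975) TRAP1 RNA scored 1.60 in R320* and 2.28 in WT. TRAP1 RNA was thus listed at more elements in R320*, and at its distant shared elements on the centromeric side most scores were lower in R320*.

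RNA of MEIOB, a meiotic single-stranded DNA-binding protein whose gene overlaps FAHD1, met 35 elements in R320* and 39 in WT, with 25 in both. All 22 contacts from 1407869 to 2011005 were shared, 9 higher and 13 lower in R320*. From 1331132 to 1363969, 5 contacts at BAIAP3, TSR3, GNPTG and UNKL were in R320* only, from 1.88 to 2.14. The 4 contacts from 1152388 to 1311018 were in WT only, from 1.55 to 2.12. At 2.1 to 2.5 Mb, 10 were in WT only, 3 in both and 1 in R320* only. These WT contacts covered all 4 elements of CCNF, which encodes cyclin F, and elements of PKD1, the polycystin gene. Its farthest contacts were in R320* only, at the STUB1 promoter (1.63) and the FBXL16 enhancer (1.66), up to 1142 kb from the gene, against 681 kb in WT. AMDHD2 and PDPK1 promoters (1.61 and 1.49) were also in R320* only. The genotypes thus differed in which distant elements were listed, on both sides of the gene.

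CREBBP, a histone acetyltransferase gene next to TRAP1, gave an RNA with 25 contacts in R320* and 27 in WT, 17 in both. Those 17 lay between 3.6 and 4.4 Mb, 8 higher and 9 lower in R320*, with a median difference of -0.00753. At 3 to 3.2 Mb, 8 contacts were in R320* only (1.31 to 1.70) and 2 in WT only (1.204 and 1.34). From 3274730 to 3515184, 5 were in WT only (1.21 to 1.53). At the ZSCAN10 and ZNF205 elements, CREBBP and TRAP1 RNA were both listed in R320* only, and NEAT1 RNA in WT only.

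The other RNAs of the segment's genes, and AC093515.1, had fewer contacts. RNA of HMOX2, a haem oxygenase whose gene overlaps NMRAL1, met 16 elements in R320*, from 1.24 to 3.06, and 0 in WT. CAPN15 RNA, from a calpain-family gene, met 8 elements in R320*, from 1.21 to 2.84, and 0 in WT. RNA of SRRM2, a scaffold protein of nuclear speckles, met 6 elements in R320* and 9 in WT, with 6 in both. The 3 in WT only lay at PRSS21, a serine protease gene, and scored from 1.51 to 1.71. The long noncoding RNA AC093515.1 met 11 elements in R320* and 10 in WT, with 7 in both, of which 6 were lower in R320*.

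Scores fell with distance from the gene for most of these RNAs. Spearman's rho between score and distance over listed elements was -0.77 in R320* (n = 30) and -0.60 in WT (n = 31) for LUC7L, and -0.76 in R320* (n = 28) for NPRL3. It was -0.68 in R320* (n = 35) and -0.67 in WT (n = 39) for MEIOB, and -0.66 in R320* (n = 25) and -0.67 in WT (n = 27) for CREBBP. For TRAP1 it was -0.14 in R320* (n = 51) and -0.26 in WT (n = 36). These are descriptions, since elements of 1 RNA share its library pool and neighbour each other.

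**Figure D4:**
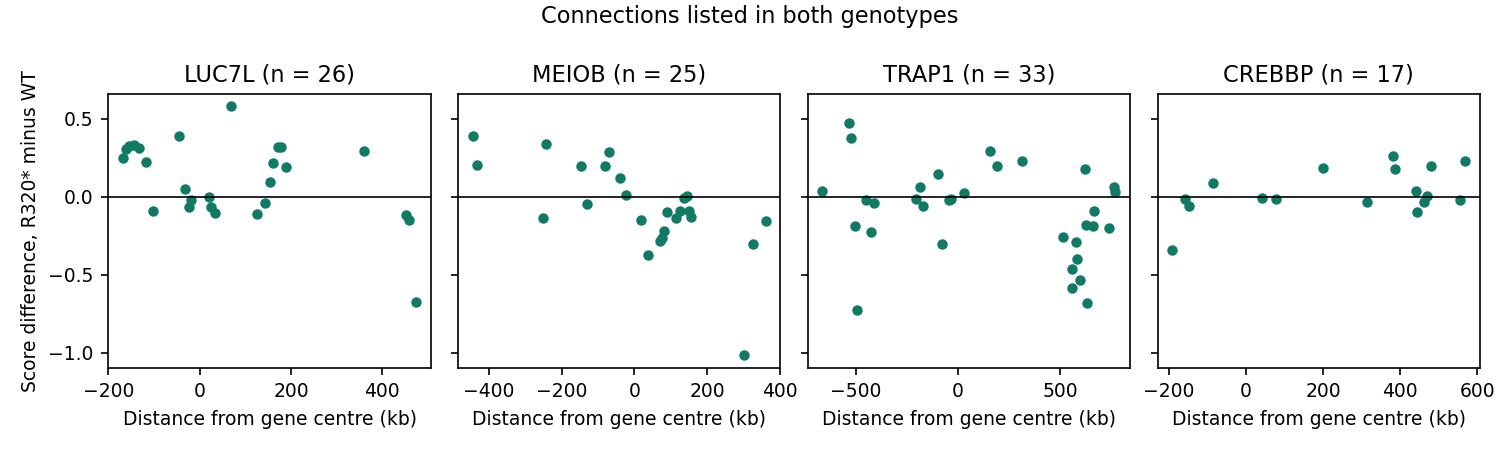
Score difference, R320* minus WT, of connections listed in both genotypes, by signed distance of the element from the centre of the RNA's gene (kb), for LUC7L, MEIOB, TRAP1 and CREBBP (n is the number of connections). LUC7L points lie mostly above 0 to the left of its gene, and TRAP1 and MEIOB points mostly below 0 far to the right, down to -1.02 for MEIOB.

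Connections listed in both genotypes had close scores. Over the 124 of the segment the median difference was -0.0185 (SD 0.258), with 53 higher and 71 lower in R320*, whereas 58.6% of the table's shared connections were higher. In the window it was 0.162 (SD 0.208, 16 connections, 10 higher and 6 lower), and in the rest -0.0236 (SD 0.255, 108 connections, 43 higher and 65 lower). The table's median was 0.0394 (SD 0.247). Past 1 unit, 0 connections were higher in R320* (0.0998% in the table) and 1 was lower (0.0749% in the table). This was MEIOB RNA at the promoter of TRAF7, a ubiquitin ligase (2148750 to 2157332), which scored 1.21 in R320* and 2.22 in WT.

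The largest differences of other RNAs and elements were smaller. TRAP1 RNA was lower in R320* at all 6 neighbouring shared elements from 4199598 to 4284097, with a median difference of -0.432. Also lower in R320* were TRAP1 RNA at the AJ003147.2 enhancer (1.204 in R320*, 1.93 in WT) and ABCC1 RNA, from a drug-efflux pump gene elsewhere on chromosome 16, at a PKD1 enhancer (1.31 in R320*, 1.83 in WT). CREBBP RNA at the SLX4 promoter scored 1.49 in R320* and 1.83 in WT, and AC093515.1 RNA at the C16orf96 enhancer 1.24 in R320* and 1.57 in WT. Higher in R320* were TRAP1 RNA at an AC108134.2 promoter (1.79 in R320*, 1.32 in WT) and NEAT1 RNA at a CIAO3 enhancer (1.91 in R320*, 1.45 in WT). MEIOB RNA at the UNKL promoter (1407869 to 1410913) scored 1.80 in R320* and 1.41 in WT. CREBBP RNA at the AC009171.2 promoter (1.63 in R320*, 1.37 in WT) and AC093515.1 RNA at the ZNF500 promoter (1.46 in R320*, 1.22 in WT) were also higher in R320*.

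By number of RNAs, 126 elements were listed in both genotypes, 35 in R320* only (18.2%, against 11.5% of the table) and 31 in WT only (16.1%, against 12% of the table). Of the 37 listed in both with a mean of at least 2 RNAs, the number of RNAs was higher in R320* by 2-fold or more at 12 (12.4% in the table) and lower by as much at 2 (9.6% in the table). The 12 rest on few RNAs. When RNAs listed in 1 genotype only were left out, 3 of 24 (12.5%) remained, near the table's share with all RNAs kept. The RHBDF1 enhancer of the window and the STUB1 promoter (674209 to 691775) met 4 RNAs in R320* and 1 in WT. The NPRL3 enhancer met 3 in R320* and 1 in WT. The 2 with fewer were the SRRM2 promoter (2749718 to 2754971) and the ZNF213 promoter (3122985 to 3136340), each with 1 RNA in R320* and 3 in WT.

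The element with most RNAs was the enhancer named for ELOB, the elongin B gene (2757827 to 2771803), with 6 RNAs in R320* and 2 in WT. It overlaps SRRM2, whose RNA scored 2.88 in R320* and 2.91 in WT. In R320* only it met RNAs of the beta-globin region on chromosome 11: HBE1, the embryonic beta-like chain, at 1.44, HBG2, a fetal one, at 1.43, and OR51B5, an olfactory receptor gene beside that cluster, at 1.497. RNAs of AC104389.4, at 1.38, and GPBP1, at 1.70, were also in R320* only, and NYAP2 RNA, which the table lists in WT alone, scored 1.95 in WT. AC104389.4 has no position in the RefSeq table. Over the whole table HBE1, HBG2, OR51B5 and AC104389.4 RNA each had 188 to 196 connections in R320* and 143 to 155 in WT. Whether they are separate signals was not tested, so the 6 RNAs may not be 6 independent visitors. The ELOB enhancer was the segment's 1 element with globin RNA, and it lay outside the alpha-globin window. HBG1, HBD and HBB were not listed as RNAs in the segment, nor was RUNX1.

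RNAs from other chromosomes were either spread along the segment or met runs of neighbouring elements, whose connections are not independent, and 7 of the 28 met a single element. NEAT1, the paraspeckle RNA, met 13 elements in R320* and 15 in WT, with 3 in both. Under 1 Mb it had 5 in R320* only and 3 in both, at 1 to 2.5 Mb it had 5 in WT only, and at 2.7 to 4.5 Mb it had 7 in WT only. It also had 2 in R320* only from 2518055 to 2539209 and 3 from 4692913 to 4735614. RNA of CAMTA1, a calmodulin-binding transcription activator, met 5 elements from 695452 to 729787 in R320* only, at 1.37 to 2.23, a stretch where LUC7L RNA was listed in WT only at 4. KAZN and LINC02163 RNA met the same 4 elements from 621563 to 643565 in R320* only, and FBXO38 RNA met 3 of them in WT only. RNA of BMP2K, a kinase, met 4 elements from 1331132 to 1358780 in WT only, at 1.42 to 2.23, all elements where MEIOB RNA was in R320* only. Steadier was SKI RNA at the promoter of the ribosomal protein gene RPS2 (1957837 to 1974636), with 2.77 in R320* and 2.68 in WT. LMAN1 RNA met 6 elements in R320* and 5 in WT, with 3 in both, at scores of at most 1.43 in R320* and 1.32 in WT.

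The genotype balance differed between stretches of 500 kb, of which examples follow. From 0 to 0.5 Mb, 30 connections were in R320* only, 23 in both and 0 in WT only, and NPRL3 RNA made 22 of the 30, leaving 8 without it. From 2 to 2.5 Mb, 4 were in R320* only, 6 in both and 18 in WT only, and MEIOB RNA made 10 of the 18, in runs of neighbouring elements. From 3.5 to 4 Mb, around TRAP1 and CREBBP, 1 was in R320* only, 17 were in both and 2 in WT only. Of 22 genes of the alpha-globin neighbourhood, 2 were listed as RNAs and 12 were the nearest gene of 25 elements. Among these, RAB11FIP3, an effector of RAB11 in membrane traffic, had 3 elements with 4 connections in R320* and 0 in WT. Of the table's elements, 11.5% were in R320* only. The connections were of LUC7L, NPRL3, CAPN15 and MALAT1 RNA. NPRL3 and CAPN15 RNA were listed nowhere in WT, and MALAT1 RNA scored 1.25, near the minimum of 1.2. A fixed list of 27 genes of the segment was drawn up as chromatin and signalling genes, though it also holds others, such as HMOX2 and TRAP1. Of the 27, 4 were listed as RNAs (CREBBP, TRAP1, SRRM2 and HMOX2) and 22 were the nearest gene of 40 elements. Among these the 4 CCNF elements had 0 connections in R320* and 4 in WT, all of MEIOB RNA, and 12% of the table's elements were in WT only. Of 21 erythroid genes, 7 were listed as RNAs, of which HBE1 and HBG2 reached the segment. Both did so at the ELOB enhancer alone and in R320* only. Beside these list counts, 11.6% of 19974 protein-coding genes in the genome were listed as RNAs.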

How the data were processed

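GRID-seq was done on K562 cells, with 2 libraries of R320* and 2 of WT, assigned by the labelled genotype. The tools were cutadapt 1.12, BWA and bedtools, and the build hg38, per the submitters' processing notes. The authors deposited 1 score per genotype for each of 115357 connections, and a column equal to the R320* score minus the WT score within 1e-05. The sources used here do not give the formula of the score, its scale or the way libraries were pooled. Element starts were taken as 0-based and 1 was added to each.

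Connections, elements and RNAs were counted with pandas 2.3.3 under Python 3.11.15. Called elements had a mean of at least 2 RNAs, were listed in both genotypes and differed at least 2-fold; called connections differed by at least 1 unit. The counting was also run on simulated data, but its outcome is not given here and is not used to back the calls. Named items were every window RNA and element, the 15 RNAs with most connections in the rest, elements with most RNAs or the largest ratio, the 6 largest score differences in each direction with 1 per RNA, and fixed gene lists; a few others were named after their values were seen, as examples of runs of elements, and not all ties are printed. The members and lists were chosen with earlier results of these data known. Positions and promoters came from RefSeq tables of GRCh38.p14, which give no gene for some RNAs. Alternatives were other minimums, window edges, merging of neighbouring elements, and leaving out RNAs of 1 genotype.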

Additional observations from a re-analysis of the deposited data

How the results depend on the processing

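No paired analysis was possible because the table holds 1 pooled score per genotype and no values per library; for the same reason no replicate could be left out. The 12 of 37 elements with at least 2-fold more RNAs in R320* became 49 of 126 with no minimum and 1 of 1 with a minimum of 4 RNAs. They became 2 of 13 with scores of at least 1.5 and 3 of 18 on the same chromosome only. Without RNAs of 1 genotype they were 3 of 24, and among block 2 elements 1 of 4. The table's share (12.4%) was counted in the main setting only. The 2 with fewer became 14, 0, 0, 0, 1 and 0 in these settings. At a threshold of 0.5 units, 1 shared connection of the segment was higher and 7 were lower, and the table's shares at this threshold were not counted. The shared part of the segment, 35.5%, was 28.4% with connections of 1 RNA merged within 100 kb and 42.2% without RNAs of 1 genotype; that of the rest, 34.4%, was 28.6% when merged. That of the window, 45.7%, was 80% without RNAs of 1 genotype, which there is NPRL3 alone. The window's share in R320* only exceeded that of the rest by 15.1 points, but by -11.4 points without RNAs of 1 genotype. Its excess of 0.265 connections per element turned to -0.445 in that setting, and to -0.0395 per kb of element. Per kb the window was above the rest, though, among elements of 1 to 10 kb (0.469 against 0.464) and block 1 elements (0.429 against 0.408). Window edges of 200 and 500 kb, elements of 1 to 10 kb and block 1 elements kept the sign of both window differences, and centring kept that of the median score differences. Leaving out RNAs of 1 genotype for the shares and the zones, leaving out NPRL3, and counting identical scores once were chosen after seeing the data. A window value for block 2 could not be had, since it holds 0 window elements. Scores near the minimum of 1.2 can enter or leave the list with small differences, and depth is unknown. Neighbouring elements share RNAs, and 10 of the segment's 349 connections had the same score as another element of their RNA.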

Other observations

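RNAs of the segment's genes also met elements elsewhere, and these contacts were picked after their values were seen. LUC7L RNA met 3 neighbouring elements of chromosome 19 at EPOR, the erythropoietin receptor gene, and SWSAP1 (11373510 to 11386612), scoring 3.28, 3.29 and 3.31 in R320*, and was not listed there in WT. These scores lay among its highest in the window.

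At the MALAT1 promoter on chromosome 11 (65495438 to 65506843), CREBBP RNA scored 4.21 in R320* and 4.32 in WT. HMOX2 RNA scored 3.80 and TRAP1 RNA 2.94 there, both in R320* only. All 3 RNAs thus met the same distant promoter, and CREBBP RNA scored higher there than at any element of 16p13. SRRM2 RNA met AIF1, PRRC2A and BAG6 elements of chromosome 6 in WT only, at 1.30 to 2.698. The cause of these contacts was not tested.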
